A study of Mus musculus with 6 samples.

Results

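Genes of the endothelium, the cell layer that lines blood vessels, and of the endocardium, the related layer that lines the heart, were followed as a list of 38 symbols in E9.5 mouse hearts with and without *Smyd1*. The list was matched by symbol and holds junction and surface markers, the ETS, SOXF and KLF transcription factors, and the members of the angiopoietin, endoglin, apelin, adrenomedullin and endothelin systems. All 38 genes were found among the 54532 genes of the deposited count table, and all 38 passed the filter on low counts, which left 19372 genes to be tested. Poly A RNA was sequenced from 3 WT and 3 *Smyd1-KO* hearts, each an individual embryonic heart at E9.5 with no treatment recorded. *Smyd1-KO* embryos carry a mutated *Smyd1* allele on both chromosomes and descend from *Smyd1+/-* mice of the Jackson Laboratory, and embryos of both sexes were used in the study. SMYD1 is a histone methyltransferase of the developing heart. The mutation is present in every cell of these embryos rather than in 1 cell type, and RNA came from whole hearts, so fewer endothelial cells and less RNA per cell cannot be told apart.

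Endothelial identity in the embryo is kept by ETS factors such as ERG and by the SOXF factors, which switch on junction and receptor genes. The endocardium arises within the early heart tube, lies against the myocardium and exchanges signals with it while trabeculae and valve cushions form. Blood flow acts on the endocardium through shear stress, and *Klf2* and *Nos3* are textbook flow-responsive genes. Adrenomedullin and apelin are peptide ligands made by endothelial and other cells, and low oxygen raises both in many tissues.

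Gene counts summed to 48627825 in the shallowest library and to 64217529 in the deepest, and the member with the fewest counts in any heart, *Esm1*, had 17. The defining endothelial and endocardial markers *Pecam1*, *Cdh5*, *Tek*, *Tie1*, *Emcn*, *Nfatc1* and *Npr3* were detected in all 6 hearts. *Smyd1* itself measured 414, 379 and 270 counts per 1000000 (CPM, with TMM library factors) in the WT hearts and 101, 222 and 206 CPM in the *Smyd1-KO* hearts. The genotypes did not overlap, but the gene was not called by edgeR (log2 fold change -1.01, SE 0.30, adjusted *P*=0.0973), and an exact two-sided permutation test gave *P*=0.1, the smallest that 3 against 3 hearts allow. A count over the whole gene can include transcripts of the mutated allele. The labels tie no heart to a litter, sex or date, and the *P*-values below measure the spread between these embryos.

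A gene was called where edgeR's adjusted *P* was under 0.05 and the log2 fold change reached 0.5 in either direction. Of the 38 members, 7 were called higher in *Smyd1-KO* hearts (*Adm*, *Robo4*, *Esm1*, *Sox17*, *Sox7*, *Cldn5* and *Acvrl1*) and 2 were called lower (*Klf2* and *Nos3*). These calls are 18.4% and 5.26% of the list, where 2.86% of all tested genes were called higher and 1.42% lower. DESeq2 called 8 members higher and 4 lower, adding *Ets1* among the higher and *Nfatc1* and *Npr3* among the lower, with 5.98% and 3.31% of all genes it tested called in these directions. Log2 fold changes of the members ran from -1.77 in *Klf2* to 3.60 in *Esm1*, with a median of 0.24, against a median of -0.0026 over all tested genes. A positive log2 fold change was found in 24 members and in 49.8% of all tested genes. The 3 *Smyd1-KO* hearts lay above all WT hearts in 11 members (28.9%) and below them in 4 (10.5%), where 15.9% and 15.5% of all tested genes were separated in these ways.

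**Figure D1:**
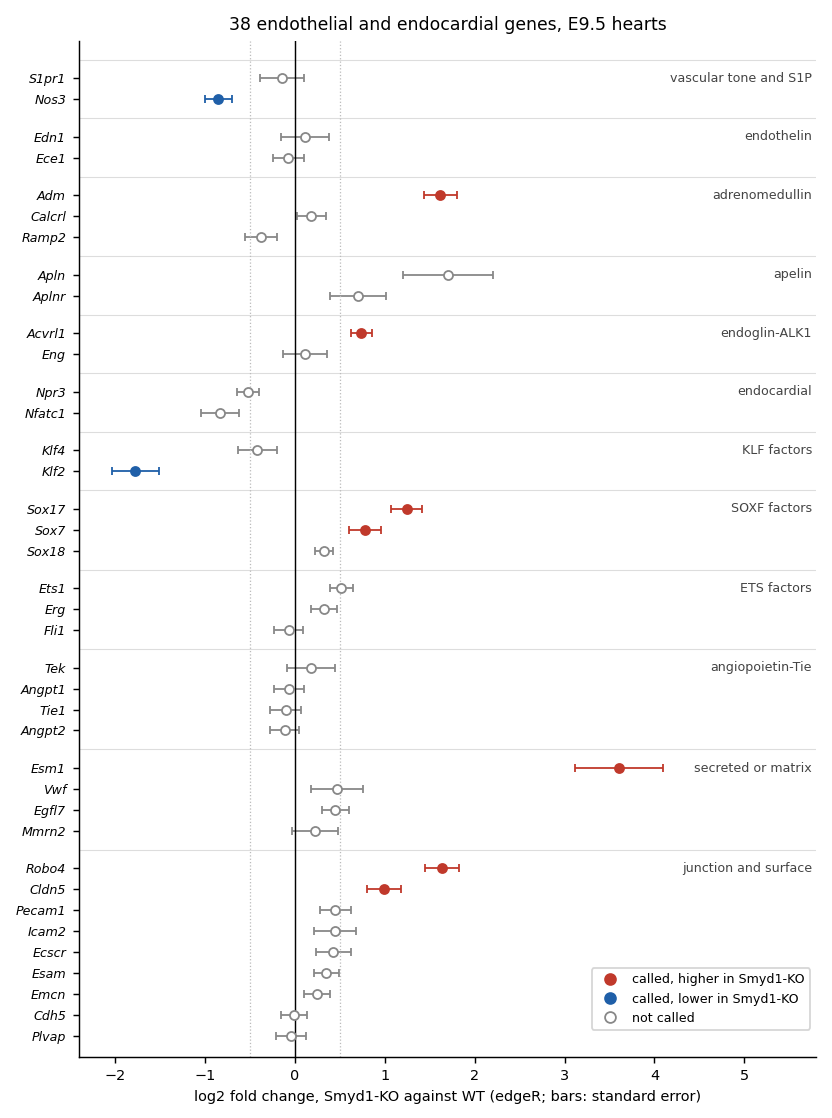
Log2 fold change of each of the 38 genes in *Smyd1-KO* against WT hearts (horizontal axis, edgeR, bars show the standard error), grouped by role on the vertical axis, with dotted lines at ±0.5. Filled red points are the 7 genes called higher, filled blue points the 2 called lower and open points the 29 not called, and *Esm1* lies farthest to the right at 3.60 and *Klf2* farthest to the left at -1.77.

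The endothelial markers *Cdh5*, *Pecam1* and *Emcn* did not pass the test. *Cdh5* encodes VE-cadherin, the adhesion molecule of endothelial junctions. It measured 138, 152 and 125 CPM in WT hearts and 112, 137 and 163 CPM in *Smyd1-KO* hearts. The groups overlapped and the log2 fold change was -0.01 (SE 0.15, adjusted *P*=0.976 by edgeR). *Pecam1*, which encodes the surface molecule CD31, measured 53.0, 49.7 and 41.2 CPM in WT and 52.5, 63.3 and 81.1 CPM in *Smyd1-KO* hearts. *Smyd1-KO* heart 1 fell inside the WT range and heart 3 was the highest of all, with a log2 fold change of 0.45 (SE 0.17, adjusted *P*=0.155 by edgeR). *Emcn*, the sialomucin endomucin of endocardium and capillaries, measured 20.9, 16.0 and 16.1 CPM in WT and 19.9, 19.5 and 23.6 CPM in *Smyd1-KO* hearts, which overlapped (log2 fold change 0.25, adjusted *P*=0.341 by edgeR).

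*Cldn5* and *Robo4* were the junction and surface genes that were called, and both were higher. *Cldn5* (chr16:18776847-18778262, GRCm38) encodes claudin-5, a strand protein of endothelial tight junctions. Its values were 12.9, 9.23 and 10.3 CPM in WT and 26.4, 18.1 and 20.3 CPM in *Smyd1-KO* hearts. The lowest *Smyd1-KO* heart lay above the highest WT heart, and the mean was 1.99-fold higher (log2 fold change 0.996, SE 0.19, adjusted *P*=0.0320 by edgeR). The other 7 genes of this group, *Pecam1*, *Cdh5*, *Emcn*, *Esam*, *Icam2*, *Ecscr* and *Plvap*, were not called. *Esam*, an immunoglobulin-type adhesion molecule, was separated between genotypes, with 21.1, 23.44 and 20.3 CPM in WT and 23.45, 27.3 and 32.1 CPM in *Smyd1-KO* hearts. Its highest WT and lowest *Smyd1-KO* hearts were almost level, and its log2 fold change of 0.35 had an adjusted *P* of 0.160 by edgeR.

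*Robo4* encodes an endothelial roundabout receptor that stabilises vessels. It measured 2.43, 2.52 and 2.46 CPM in WT hearts and 6.27, 7.80 and 9.06 CPM in *Smyd1-KO* hearts. The WT hearts were nearly identical and every *Smyd1-KO* heart lay more than 3 CPM above them, with a 3.12-fold higher mean (log2 fold change 1.64, SE 0.19, adjusted *P*=0.00664 by edgeR). Per kilobase of exon, its level was 0.466 CPM in WT hearts, which ranked 37 of 38. The stretch upstream of its gene model (chr9:37401897-37415115) is shown because *Robo4* is one of the most separated members, and its RefSeq promoter window holds paired copies of the SOX core. Capitals mark the SOX core ACAAT, searched on both strands. Any copy of it is found in 27.7% of 32851 RefSeq promoter windows of 250 bases and in 7 of the 17 members with a window. The share of windows with paired copies was not counted.
Robo4 upstream, chr9:37401722-37401896, GRCm38.p6, plus strand: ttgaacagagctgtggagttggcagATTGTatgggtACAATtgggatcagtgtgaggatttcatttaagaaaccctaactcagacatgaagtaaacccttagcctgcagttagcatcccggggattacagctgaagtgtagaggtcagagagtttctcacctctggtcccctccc
The copies begin 225 and 214 bases before the RefSeq start and lie on opposite strands. The same window also holds an ETS core (CAGGAA or CCGGAA) 50 bases before the RefSeq start, in the part that is not printed. A match is a run of letters and was not tested as a binding site.

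Among secreted and matrix genes, *Esm1* had the largest log2 fold change of the list. It encodes endocan, a proteoglycan that endothelial tip cells secrete and that vascular endothelial growth factor induces. Its counts were 17, 51 and 83 in WT and 533, 625 and 404 in *Smyd1-KO* hearts, or 0.285, 0.803 and 1.25 CPM against 11.0, 10.6 and 7.08 CPM. Every *Smyd1-KO* heart was more than 5 times the highest WT heart, and the mean rose 12.2-fold (log2 fold change 3.60, SE 0.49, adjusted *P*=0.0127 by edgeR). *Esm1* was the lowest member in WT hearts, at 0.371 CPM per kilobase of exon, and ranked 31 of 38 in *Smyd1-KO* hearts, at 4.55. Its upstream sequence is shown because of this change, with capitals on ETS cores (CAGGAA or CCGGAA, found in 35.1% of windows and in 10 of 17 members) and on the hypoxia response core (ACGTG or GCGTG, found in 38.6% of windows and in 6 of 17 members), each searched on both strands.
Esm1 upstream, chr13:113209409-113209658, GRCm38.p6, plus strand: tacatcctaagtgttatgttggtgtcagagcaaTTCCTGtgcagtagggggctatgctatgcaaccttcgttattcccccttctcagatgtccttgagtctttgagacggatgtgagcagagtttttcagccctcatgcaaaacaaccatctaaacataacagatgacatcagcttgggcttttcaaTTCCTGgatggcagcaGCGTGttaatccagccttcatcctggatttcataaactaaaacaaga
The ETS cores begin 217 and 63 bases and the hypoxia core 47 bases before the start. *Egfl7*, a secreted regulator of vessel tubes, measured 52.5, 60.2 and 52.4 CPM in WT and 59.1, 78.4 and 88.3 CPM in *Smyd1-KO* hearts. *Smyd1-KO* heart 1 lay just below the highest WT heart, and the log2 fold change of 0.45 (SE 0.15) was not called (adjusted *P*=0.119 by edgeR). *Vwf*, which encodes von Willebrand factor, and *Mmrn2*, a matrix glycoprotein, had log2 fold changes of 0.47 and 0.23 and overlapping groups.

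None of the angiopoietin system's 4 genes was called by edgeR. *Angpt1* and *Angpt2* encode the ligands, *Tek* encodes their receptor TIE2 and *Tie1* encodes a partner receptor. *Angpt1*, a product of myocardium, measured 64.9, 66.4 and 62.3 CPM in WT and 46.8, 60.5 and 77.5 CPM in *Smyd1-KO* hearts. *Angpt2* measured 6.80, 6.66 and 5.95 CPM in WT and 5.12, 6.61 and 6.25 CPM in *Smyd1-KO* hearts. In both ligands the *Smyd1-KO* hearts lay on either side of or among the WT hearts. *Tek* measured 94.8, 89.9 and 84.4 CPM in WT and 81.1, 71.0 and 152 CPM in *Smyd1-KO* hearts. *Tie1* measured 127, 131 and 99.4 CPM in WT and 96.1, 99.5 and 138 CPM in *Smyd1-KO* hearts. *Smyd1-KO* heart 3 was the highest heart for both receptors, and the other *Smyd1-KO* hearts were within or below the WT range. The 4 log2 fold changes ran from -0.11 to 0.18, with standard errors of 0.16 to 0.27, and edgeR's adjusted *P* from 0.720 to 0.840.

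All SOXF factors, the SRY-related regulators of endothelial and arterial identity, were higher in every *Smyd1-KO* heart than in any WT heart, and *Sox17* and *Sox7* were called. *Sox17* (chr1:4490931-4497354) measured 15.1, 18.6 and 13.4 CPM in WT and 30.6, 37.6 and 43.2 CPM in *Smyd1-KO* hearts. Its lowest *Smyd1-KO* heart was over 1.5 times its highest WT heart, and the mean was 2.37-fold higher (log2 fold change 1.24, SE 0.17, adjusted *P*=0.0129 by edgeR). *Sox7* (chr14:63943673-63950732) measured 17.1, 16.7 and 14.2 CPM in WT and 21.2, 28.2 and 33.1 CPM in *Smyd1-KO* hearts. The genotypes were separated by a narrower gap, with a log2 fold change of 0.78 (SE 0.17, adjusted *P*=0.0482 by edgeR). With limma voom this call was lost (adjusted *P*=0.0551). *Sox18* measured 26.6, 25.9 and 22.6 CPM in WT and 30.1, 30.4 and 33.7 CPM in *Smyd1-KO* hearts, also with no overlap. Its log2 fold change of 0.33 (SE 0.10) was under the fold limit and its adjusted *P* was 0.107 by edgeR. Per kilobase of exon, *Sox18* was the most abundant SOXF mRNA in WT hearts (15.5 ± 1.32 CPM, SD, n = 3), above *Sox7* (4.85 ± 0.467) and *Sox17* (3.29 ± 0.553). In *Smyd1-KO* hearts *Sox18* stood at 19.4 ± 1.24, and *Sox7* (8.33 ± 1.81) and *Sox17* (7.78 ± 1.33) differed from each other by less than their spread.

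Among the ETS factors, *Ets1* was the only member past an unadjusted *P* of 0.05 by edgeR, and *Erg* was also past it by DESeq2 (unadjusted *P*=0.0470). ETS1 acts in sprouting endothelium and in other embryonic cells. It measured 60.4, 61.1 and 72.9 CPM in WT and 109, 81.9 and 87.8 CPM in *Smyd1-KO* hearts, with no overlap. Its log2 fold change was 0.52 (SE 0.13), with an adjusted *P* of 0.0647 by edgeR and 0.0115 by DESeq2. *Erg*, the factor most restricted to endothelium, measured 17.5, 19.9 and 15.5 CPM in WT and 19.5, 21.3 and 25.4 CPM in *Smyd1-KO* hearts. *Fli1*, an ETS factor of endothelium and blood, measured 19.7, 14.3 and 16.4 CPM in WT and 14.4, 18.6 and 15.2 CPM in *Smyd1-KO* hearts. In both the genotypes overlapped, and the log2 fold changes were 0.32 and -0.07. Of 16 other ETS, GATA, FOX, KLF and NFAT-type factors on a companion list, *Nfatc4* was called higher (log2 fold change 0.55), and *Gata2* (-1.29) and *Etv2* (-1.08), a pair that acts in the shared progenitors of blood and endothelium, were called lower by edgeR.

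*Klf2* was the member that fell the most. It encodes a zinc-finger factor that endothelial cells raise under laminar flow, and it lies at chr8:72319033-72321656. It measured 15.3, 15.8 and 12.7 CPM in WT hearts and 2.76, 4.43 and 5.64 CPM in *Smyd1-KO* hearts. The highest *Smyd1-KO* heart was under the lowest WT heart by a wide margin, and the mean of *Smyd1-KO* hearts was 29.3% of the WT mean (log2 fold change -1.77, SE 0.26, adjusted *P*=0.0158 by edgeR). *Klf4*, its close relative, measured 12.2, 8.19 and 9.58 CPM in WT and 5.78, 7.95 and 8.72 CPM in *Smyd1-KO* hearts. Its groups overlapped in *Smyd1-KO* heart 3, and its log2 fold change was -0.41 (SE 0.22, adjusted *P*=0.284 by edgeR). The sequence upstream of *Klf2* is shown because the promoter of this flow-responsive gene is known to hold a site for MEF2, the family of factors through which flow signals reach it. Capitals mark the MEF2 consensus, which reads the same on both strands, begins 118 bases before the RefSeq start and is found in 2.92% of all promoter windows and in 2 of 17 members, *Klf2* and *Erg*.
Klf2 upstream, chr8:72318812-72319032, GRCm38.p6, plus strand: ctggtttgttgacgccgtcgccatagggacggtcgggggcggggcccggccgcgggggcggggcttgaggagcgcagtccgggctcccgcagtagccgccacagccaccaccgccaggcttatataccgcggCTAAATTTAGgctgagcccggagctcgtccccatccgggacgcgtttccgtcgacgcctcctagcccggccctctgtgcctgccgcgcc
*Mef2c*, a factor of that family on the companion list, was not called (log2 fold change -0.37, SE 0.17, adjusted *P*=0.233 by edgeR).

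*Nos3*, the other called fall, encodes the endothelial nitric oxide synthase. It measured 38.2, 40.1 and 28.5 CPM in WT and 17.8, 20.4 and 21.1 CPM in *Smyd1-KO* hearts. The *Smyd1-KO* hearts were tightly grouped below the lowest WT heart, at 55.5% of the WT mean (log2 fold change -0.85, SE 0.15, adjusted *P*=0.0252 by edgeR). The gene (chr5:24364810-24384474) shares 294 exonic bases with *Atg9b* and 1040 with *Gm15587*, which held 788 and 131 counts over all hearts against 9995 for *Nos3*, and the strand setting of the counting is not given in the sources used here. *Sox17*, *Acvrl1*, *Npr3*, *Angpt1*, *Edn1*, *Ecscr*, *Egfl7* and *Eng* also share exonic bases with a gene on the opposite strand. The partner held 8 counts beside *Sox17* and 18 beside *Acvrl1*, but 4018 beside *Egfl7* (*Agpat2*, 64 shared bases) and 15081 beside *Eng* (*Fpgs*, 61 shared bases). *Ramp2* shares 1103 exonic bases with *Vps25* on its own strand, and how such reads were assigned is not given either. *S1pr1*, a receptor for the blood lipid sphingosine-1-phosphate and the other gene of this group, had overlapping values and a log2 fold change of -0.14 (SE 0.24).

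The endocardial markers *Nfatc1* and *Npr3* were both lower in every *Smyd1-KO* heart than in any WT heart, without an edgeR call. *Emcn*, which is found in endocardium too, had overlapping groups and a log2 fold change of 0.25. *Nfatc1* encodes the transcription factor that marks endocardium and valve-forming cells. It measured 49.8, 43.8 and 32.1 CPM in WT and 17.5, 25.7 and 27.2 CPM in *Smyd1-KO* hearts. The gap between the groups was under 5 CPM, and the log2 fold change was -0.83 (SE 0.21), with an adjusted *P* of 0.0687 by edgeR and 0.00354 by DESeq2. *Npr3*, a natriuretic peptide clearance receptor of endocardium, measured 64.7, 82.0 and 68.6 CPM in WT and 43.7, 52.6 and 54.1 CPM in *Smyd1-KO* hearts. These hearts were also separated, with a log2 fold change of -0.52 (SE 0.12) and an adjusted *P* of 0.0567 by edgeR and 0.00910 by DESeq2. On a list of 8 other endocardial genes 0 were called by edgeR, 2 (*Gata5* and *Tmem100*) had an unadjusted *P* under 0.05 and were lower, and DESeq2 called these 2. The median log2 fold change of that list was 0.011.

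**Figure D2:**
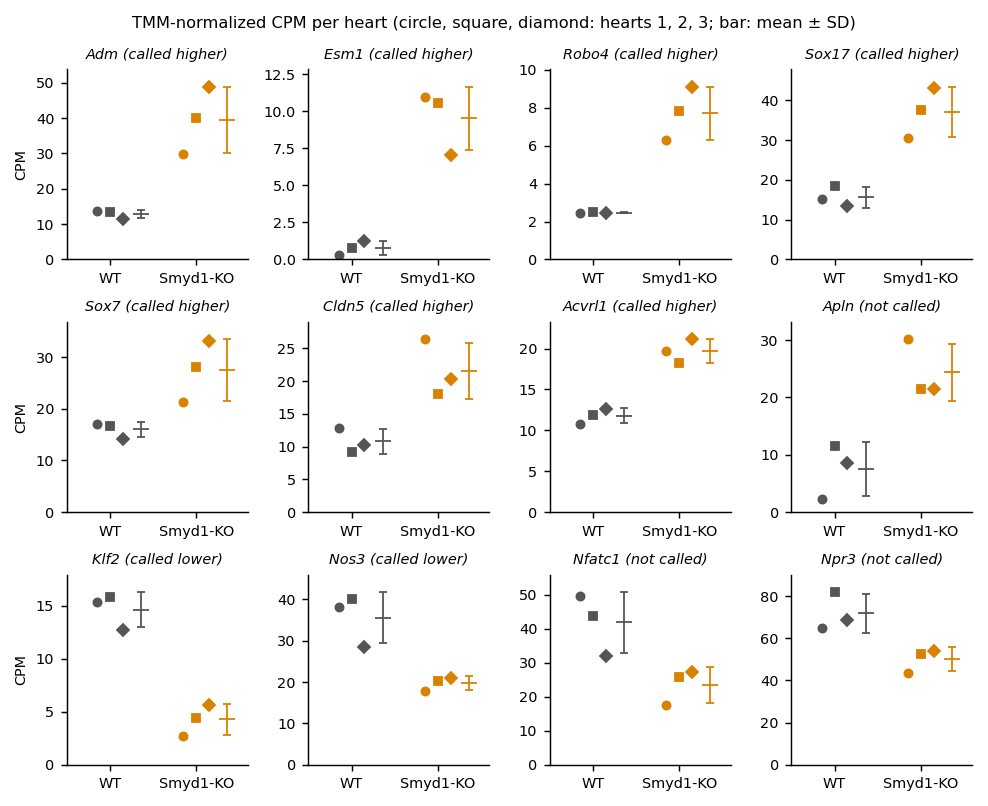
CPM with TMM library factors in each heart (vertical axes, from 0) for the 9 called genes and *Apln*, *Nfatc1* and *Npr3*, with WT in grey and *Smyd1-KO* in orange, where circles, squares and diamonds are hearts 1, 2 and 3 and bars show the mean and SD of 3 hearts. In each of the 12 panels the genotypes do not overlap, upwards in the first 8 and downwards in the last 4.

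Markers of other cells also differed between the genotypes. Of 13 tested erythroid genes 11 had an unadjusted *P* under 0.05 by edgeR and were lower. Among the 13, edgeR called 3 lower, among them *Alas2* and *Gata1*, and DESeq2 called 9 lower and 0 higher. The summed level of all 13 was 756 to 1010 CPM in WT and 28.4 to 286 CPM in *Smyd1-KO* hearts. Of the 13 *Epb42* alone was at 0 in a heart. The median erythroid gene differed from the WT mean by -4.80, -1.66 and -2.71 on the log2 scale in *Smyd1-KO* hearts 1, 2 and 3. Among the *Smyd1-KO* hearts, *Klf2*, *Nos3*, *Nfatc1* and *Npr3* were lowest in heart 1, as were 30 of the 38 members in all, and highest in heart 3. The erythroid median was also lowest in heart 1 and was highest in heart 2. The part of the lower erythroid level in the values of these 4 genes was not tested. *Cdh5*, *Tek* and *Tie1*, which are also endothelial genes, did not pass the test in either direction and had overlapping groups. *Pecam1* was not called either, but had a positive log2 fold change of 0.45 (unadjusted *P*=0.0309 by edgeR). *Kdr*, a further endothelial marker outside the 38, was not called by edgeR. Its raw counts, not scaled for depth, were 8452, 10590 and 9135 in WT and 9040, 14794 and 16512 in *Smyd1-KO* hearts. *Smyd1-KO* heart 1 was the shallowest library. Among all 38 members, 13 were higher and 4 lower at an unadjusted *P* under 0.05 by edgeR.

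In the endoglin system, which binds the ligands BMP9 and BMP10, the receptors differed in their values. *Acvrl1* (chr15:101128522-101145336) encodes the signalling receptor ALK1. It measured 10.8, 11.9 and 12.6 CPM in WT and 19.7, 18.2 and 21.1 CPM in *Smyd1-KO* hearts. Hearts of both genotypes were closely grouped and did not overlap, with a log2 fold change of 0.74 (SE 0.12, adjusted *P*=0.0192 by edgeR). *Eng*, the co-receptor endoglin, measured 124, 104 and 79.8 CPM in WT and 77.1, 115 and 142 CPM in *Smyd1-KO* hearts. The *Smyd1-KO* hearts of *Eng* spread on both sides of the WT range (log2 fold change 0.12, SE 0.24, adjusted *P*=0.805 by edgeR), and whether the changes of the receptors differ from each other was not tested.

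In the adrenomedullin system the ligand rose and its receptor was not called. *Adm* (chr7:110627661-110629820) encodes adrenomedullin, a peptide that widens vessels and is needed for vessel and heart growth in the embryo. It measured 13.6, 13.5 and 11.5 CPM in WT and 30.0, 39.9 and 48.7 CPM in *Smyd1-KO* hearts. The lowest *Smyd1-KO* heart was over 2 times the highest WT heart, and the mean was 3.07-fold higher (log2 fold change 1.62, SE 0.18, adjusted *P*=0.00664 by edgeR). *Calcrl*, which encodes the receptor, measured 39.7, 43.4 and 37.0 CPM in WT and 35.3, 47.6 and 53.8 CPM in *Smyd1-KO* hearts. *Ramp2*, the partner that makes this receptor bind adrenomedullin, measured 48.2, 41.0 and 30.4 CPM in WT and 27.4, 30.0 and 34.7 CPM in *Smyd1-KO* hearts. Both overlapped, with log2 fold changes of 0.19 (SE 0.16) and -0.38 (SE 0.18). *Adm* is shown with its promoter because it is a textbook target of hypoxia-inducible factors, and the capitals mark the hypoxia core, here as its reverse complement CACGC.
Adm upstream, chr7:110627407-110627656, GRCm38.p6, plus strand: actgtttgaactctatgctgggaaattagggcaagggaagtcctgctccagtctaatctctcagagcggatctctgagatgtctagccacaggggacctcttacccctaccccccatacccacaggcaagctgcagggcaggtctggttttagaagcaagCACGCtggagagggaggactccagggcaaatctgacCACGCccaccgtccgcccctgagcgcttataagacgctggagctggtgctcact
The 2 copies begin 90 and 54 bases before the RefSeq start.

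The apelin ligand and receptor both had higher means in *Smyd1-KO* hearts, and neither was called. *Apln* encodes the peptide apelin. It measured 2.35, 11.6 and 8.48 CPM in WT and 30.2, 21.5 and 21.4 CPM in *Smyd1-KO* hearts. The groups did not overlap, but the WT hearts spread over almost 5-fold, and the log2 fold change of 1.70 had an SE of 0.50 (adjusted *P*=0.0940 by edgeR, 0.0508 by DESeq2). *Apln* was called by edgeR when no filter on low counts was used (adjusted *P*=0.0443). *Aplnr*, its receptor in venous and progenitor endothelium, measured 15.8, 29.8 and 34.1 CPM in WT and 56.6, 32.7 and 40.7 CPM in *Smyd1-KO* hearts. Its groups overlapped in *Smyd1-KO* heart 2, and the log2 fold change was 0.70 (SE 0.31, adjusted *P*=0.207 by edgeR). WT heart 1 was the lowest and *Smyd1-KO* heart 1 the highest for both ligand and receptor. In the endothelin system, *Edn1*, the ligand, and *Ece1*, the enzyme that activates it, had log2 fold changes of 0.11 (SE 0.27) and -0.07 (SE 0.17) and overlapping values. Among 29 tested of 32 other ligands, receptors and partners of these systems, 2 were called higher by edgeR and 0 lower. These were *Adm2* and *Ackr3*. *Adm2*, another peptide for the adrenomedullin receptors, measured 0.302, 0.0945 and 0.0751 CPM in WT and 2.12, 4.30 and 4.19 CPM in *Smyd1-KO* hearts. It held only 18, 6 and 5 counts in the WT hearts, near the floor. *Ackr3*, a decoy receptor that also binds adrenomedullin, had a log2 fold change of 0.88 (SE 0.19).

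Genes of the hypoxia response rose in the same hearts as *Adm* and *Esm1*. All 16 listed hypoxia genes outside the 38 were called higher by edgeR, and their summed level was 5166 to 6517 CPM in WT and 11280 to 12670 CPM in *Smyd1-KO* hearts, with none at 0. *Vegfa*, the growth factor named above for *Esm1*, was one of them (log2 fold change 1.44, SE 0.19). The part of the hypoxia response in the rises of *Adm* and *Esm1*, and in the values of *Apln*, was not tested.

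**Figure D3:**
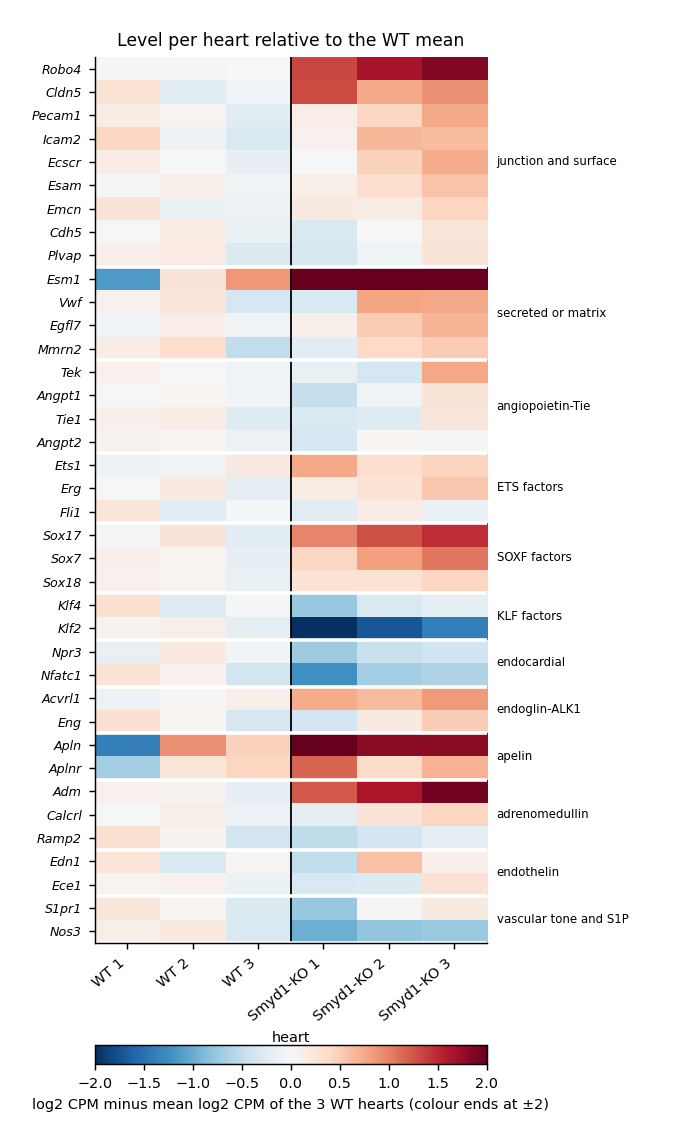
Log2 CPM of each of the 38 genes (rows, grouped by role) in each heart (columns) minus the mean of the 3 WT hearts, where red is higher and blue lower than the WT mean and the colour ends at ±2. *Esm1*, *Apln*, *Adm* and *Robo4* stand out red and *Klf2* blue in all 3 *Smyd1-KO* hearts, and *Smyd1-KO* heart 1 is paler or bluer than heart 3 in most other rows.

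The 3 *Smyd1-KO* hearts differed among themselves in a way that ran through the list. Heart 1 had the lowest *Smyd1-KO* value in 30 of 38 members and heart 3 the highest in 28. *Cldn5*, *Esm1*, *Ets1*, *Apln* and *Aplnr* were the 5 members with the highest value in heart 1. The median member lay 0.16 below the WT mean in *Smyd1-KO* heart 1, 0.28 above it in heart 2 and 0.47 above it in heart 3 on the log2 scale. The same medians of 20 other pan-endothelial genes were 0.01, 0.16 and 0.61, and those of 14 cardiomyocyte genes were -0.87, 0.20 and 0.23. Of these 14, edgeR called 0, and 1 had an unadjusted *P* under 0.05 in each direction. WT hearts 1, 2 and 3 also differed, with medians of 0.088, 0.067 and -0.141 for the members. Their medians were 0.024, 0.121 and -0.105 for the pan-endothelial list, and 0.414, 0.101 and -0.498 for the cardiomyocyte genes. Of the 20 other pan-endothelial genes, 4 (*Flt1*, *Clec14a*, *Adgrl4* and *Myct1*) were called higher and 0 lower by edgeR, with a median log2 fold change of 0.19, and DESeq2 called 8 higher and 1 lower. When each member was taken relative to the median of those 20 genes in the same heart, 15 members were separated upwards and 4 (*Klf2*, *Nos3*, *Nfatc1* and *Npr3*) downwards, where 11.3% and 7.83% of all genes were separated on that scale. All 9 called members kept their direction without overlap, but they had been called on these same hearts and were already separated in CPM. Their separation on this scale is therefore no independent check of the calls. *Ets1*, which was separated in CPM, overlapped on this scale, at 1.49 in WT heart 3 and 1.40 in *Smyd1-KO* heart 3.

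**Figure D4:**
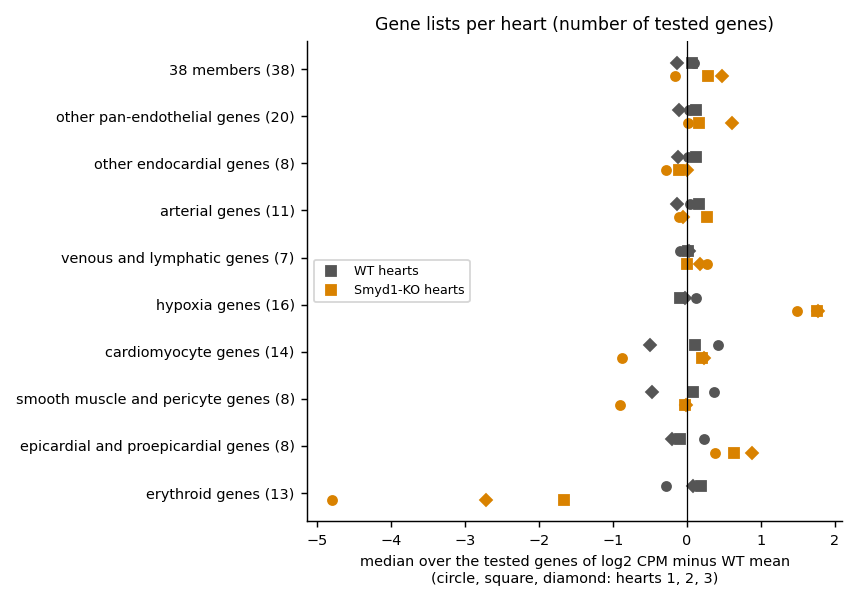
Median over the tested genes of each list of log2 CPM minus the WT mean (horizontal axis) in each WT heart (grey) and *Smyd1-KO* heart (orange), with circles, squares and diamonds for hearts 1, 2 and 3. The 38 genes and the other endothelial lists stay within 1 of the WT mean in all 6 hearts, while the hypoxia list is higher and the erythroid list lower in all 3 *Smyd1-KO* hearts.

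Levels between genes were compared per kilobase of exon. In WT hearts *Plvap*, which encodes the diaphragm protein of fenestrae and caveolae, was the highest member (61.7 ± 9.55 CPM per kilobase), followed by *Ece1* (45.5 ± 3.73), *Cdh5* (32.9 ± 3.25), *Eng* (25.4 ± 5.52) and *Tie1* (24.3 ± 3.54). *Eng* and *Tie1* differed by less than their spread. *Plvap*, *Ece1*, *Cdh5* and *Eng* also led in *Smyd1-KO* hearts, at 59.9, 43.3, 32.7 and 27.5 CPM per kilobase. The called genes lay between 0.371 (*Esm1*) and 8.61 (*Nos3*) CPM per kilobase in WT hearts, against a median of 7.59 over the 38.

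**Figure D5:**
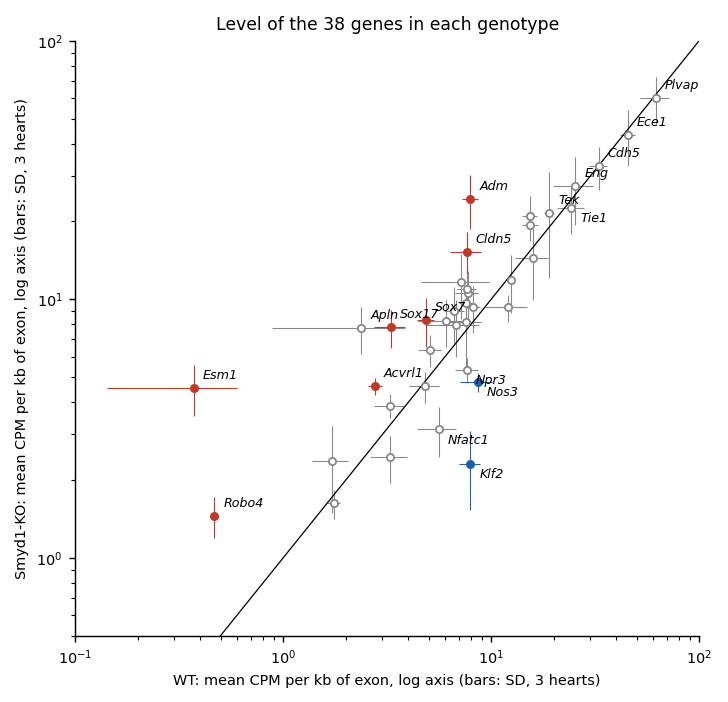
Mean CPM per kilobase of exon of the 38 genes in WT (horizontal log axis) and *Smyd1-KO* hearts (vertical log axis), with bars for the SD of 3 hearts and a line of equal level. *Esm1* and *Robo4*, the lowest genes in WT hearts, lie above the line among the red points called higher, *Klf2* and *Nos3* lie below it in blue, and *Plvap*, *Ece1* and *Cdh5* lie on it at the upper end.

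Of the 29 members not called, 8 had an unadjusted *P* under 0.05, namely *Pecam1*, *Esam*, *Egfl7*, *Ets1*, *Sox18* and *Apln* with positive and *Nfatc1* and *Npr3* with negative log2 fold changes. In all, 44.7% of members and 25.1% of tested genes had an unadjusted *P* under 0.05 by edgeR. The remaining 21 had log2 fold changes from -0.41 to 0.70 and adjusted *P* from 0.207 to 0.976. The calls depended on single hearts, in the members as in the whole table. Without WT heart 2 edgeR called 1 member higher (*Sox17*) and 0 lower, beside 0.449% and 0.0403% of all genes tested in that fit. Leaving out any other heart gave 3 to 9 members higher and 0 to 2 lower, beside 0.656% to 4.04% and 0.207% to 2.23% of all genes. *Adm*, *Robo4* and *Esm1* kept their calls in 5 of 6 such fits, *Sox17* in 4, *Cldn5*, *Klf2* and *Nos3* in 2, and *Sox7* and *Acvrl1* in 1, and all 9 kept their direction in all 6.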

How the data were processed

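RNA-seq was performed by the authors on poly A RNA of individual E9.5 hearts, 3 WT and 3 *Smyd1-KO*, and reads were aligned to mm10 with STAR. The deposited count table holds raw read counts per Ensembl gene that the authors made without normalization, and the counting tool, annotation release and strand setting are not given in the sources used here. A deposited table of normalized values was not used. Groups and replicate numbers were taken from the sample titles.

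Counts were tested with edgeR 4.0.16 in R 4.3.3 (filterByExpr, TMM, quasi-likelihood test, Benjamini-Hochberg over 19372 genes), after the script had been tested on simulated data. The SE is the log2 fold change divided by the square root of F. CPM use the TMM factors, which ran from 0.979 to 1.04. DESeq2 1.42.0, limma voom (limma 3.58.1), RLE and upper-quartile normalization, other filters, robust dispersions, a replicate block and leaving out each heart were alternatives. All intervals and errors cover the spread between hearts, and 3 per group limits their precision.

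The members and the companion lists were chosen with earlier results of these data known. Values in every heart were printed for called members, members with an unadjusted *P* under 0.05 or a DESeq2 call, defining markers and the members of the SOXF, ETS, KLF, angiopoietin, apelin, adrenomedullin and endoglin systems. From the other lists called genes may be named, and 1 of them is not reported here. *Vegfa*, *Mef2c*, *Gata5* and *Tmem100* were named after their values were seen, and the motifs were chosen after promoters had been seen. Positions and exonic lengths came from GENCODE M21 (GRCm38) and promoters from RefSeq (GRCm38.p6), which gave windows for 17 of 38 members. Of each window 250 bases before the start were scanned, and printed stretches stop before the first annotated transcript base.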

Additional observations from a re-analysis of the deposited data

How the results depend on the processing

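RLE normalization, upper-quartile normalization, a table without haemoglobin and mitochondrially encoded genes, at least 10 counts in every heart, robust dispersions and no limit on the fold change each called 7 members higher and 2 lower, and limma voom 6 and 2, without *Sox7*. DESeq2 called 8 higher and 4 lower. Without a filter on low counts edgeR called 9 higher and 4 lower, adding *Ets1*, *Apln*, *Nfatc1* and *Npr3*, and 691 and 334 of all 33160 genes. Leaving out each heart in turn gave 1 to 9 members higher and 0 to 2 lower, with the fewest without WT heart 2 (1 and 0) and the most without *Smyd1-KO* heart 1 (9 and 2, with *Vwf* and *Egfl7* added). Over all genes these 2 fits called 89 higher and 8 lower, and 809 and 447, where the fit with all hearts called 555 and 275. Without WT heart 1 the member counts were 5 and 0, without WT heart 3 they were 3 and 1, without *Smyd1-KO* heart 2 they were 3 and 0, and without *Smyd1-KO* heart 3 they were 4 and 1, and over all genes these 4 fits called 130 to 362 higher and 41 to 139 lower. Each such fit has fewer hearts, and no further cause was tested.

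With the replicate block 0 members were called higher and 0 lower by edgeR, and 0.305% of all tested genes were called. The adjusted *P* of the 9 called members then ran from 0.0731 (*Cldn5*) to 0.175 (*Sox7*). Same-numbered hearts are different embryos, and their deviations from the genotype means had a mean correlation of -0.151. The mean for different numbers, 0.0733, is no separate comparison, because deviations within a genotype sum to 0 and tie it to the first value. As 0 hearts matched their own number best, the numbers were not taken as pairs.

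The median log2 fold change of the members stayed between 0.14 and 0.35 when single hearts were left out. Of the single members, 9 uncalled genes with log2 fold changes near 0 changed sign in such fits. They ran from -0.15 to 0.12 in *Cdh5*, -0.21 to 0.085 in *Plvap*, -0.26 to 0.10 in *Angpt1*, -0.24 to 0.38 in *Tek*, -0.18 to 0.073 in *Fli1*, -0.10 to 0.32 in *Eng*, -0.18 to 0.35 in *Edn1*, -0.29 to 0.035 in *Ece1* and -0.32 to 0.091 in *S1pr1*. Depth was a limit for *Esm1*, with 17 counts in a WT heart, and outside the members for *Adm2*, with 18, 6 and 5 counts in the WT hearts.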

Other observations

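Each of the lists of endothelial subtype genes below held 1 gene called by edgeR. Over all tested genes edgeR called 2.86% higher and 1.42% lower, and DESeq2 called 5.98% and 3.31%. The tip cell genes *Cxcr4*, *Dll4*, *Kdr*, *Flt4* and *Unc5b* also stand on other endothelial lists. Of 11 arterial genes 0 were called higher and 1 lower, *Bmx*, a tyrosine kinase of arterial endothelium and endocardium, with 3.14, 2.27 and 1.88 CPM in WT and 0.761, 0.761 and 0.876 CPM in *Smyd1-KO* hearts (log2 fold change -1.60, SE 0.26, adjusted *P*=0.0192 by edgeR). Of 7 venous and lymphatic genes 1 was called higher and 0 lower, *Stab2*, a scavenger receptor of hyaluronan, with 0.504, 0.614 and 0.571 CPM in WT and 2.49, 3.52 and 5.68 CPM in *Smyd1-KO* hearts (log2 fold change 2.79, SE 0.34, adjusted *P*=0.00861 by edgeR). Of 10 tip cell genes 1 was called higher and 0 lower, *Pdgfb*, the ligand that draws pericytes to vessels, with 7.69, 5.31 and 4.79 CPM in WT and 15.1, 19.6 and 22.7 CPM in *Smyd1-KO* hearts (log2 fold change 1.69, SE 0.23, adjusted *P*=0.0129 by edgeR). In the tip cell list 6 of 10 genes had an unadjusted *P* under 0.05 and were higher, the median log2 fold change was 0.39, and DESeq2 called 3 higher and 1 lower. DESeq2 called 1 arterial gene higher and 1 lower, and 2 venous and lymphatic genes higher. In *Bmx*, *Stab2* and *Pdgfb* the genotypes did not overlap.

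The lists of other cells in the heart region held few edgeR calls. Of 8 cushion mesenchyme genes 0 were called, with 3 at an unadjusted *P* under 0.05 and 1 called by DESeq2, all higher. Of 8 smooth muscle and pericyte genes 0 were called, with 2 at an unadjusted *P* under 0.05 and 2 called by DESeq2, all lower. Of 8 epicardial and proepicardial genes 1 was called higher, *Krt19*, a keratin of epithelia and mesothelium (73.4, 54.1 and 43.3 CPM in WT, 129, 235 and 211 CPM in *Smyd1-KO* hearts). All 8 of these genes had a positive log2 fold change, with a median of 0.48, 3 had an unadjusted *P* under 0.05 and DESeq2 called 3 higher. Their summed level was 161 to 196 CPM in WT and 270.1 to 477 CPM in *Smyd1-KO* hearts. Of 6 tested haematopoietic and platelet genes 0 were called, with 1 at an unadjusted *P* under 0.05 in each direction and 1 called by DESeq2 in each direction. Of 9 pharyngeal and foregut genes 0 were called, with 1 lower at an unadjusted *P* under 0.05 and by DESeq2. Of 5 tested liver bud genes 0 were called, with 0 at an unadjusted *P* under 0.05 and 0 by DESeq2. These last 2 lists differed widely between hearts of the same genotype. The liver bud medians relative to the WT mean were -3.93, 2.43 and 1.48 in WT hearts and 1.43, -4.06 and 2.58 in *Smyd1-KO* hearts (log2 scale). The pharyngeal medians were -0.649, 0.324 and 0.413 in WT and 0.206, 0.499 and -0.914 in *Smyd1-KO* hearts. The lack of calls therefore does not show equal content of these tissues.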
